A study of Homo sapiens with 6 samples.

Results

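The genes that make cholesterol, control its synthesis through SREBP2 and handle sterols after synthesis or uptake were followed in the suspension line HL-60, which came from a human promyelocytic leukaemia. The list was given by name and holds 27 genes, found by their symbols among the 58302 Ensembl genes counted. It has 19 enzymes of the pathway, 5 genes that control SREBP2 and 3 genes of sterol transfer, storage and lipoprotein receptor turnover. All 27 passed the filter on low counts. The study asked what OSGEP, the catalytic subunit of the complex that puts the t6A modification on tRNA, does in acute myeloid leukaemia. One group of 3 libraries came from cells carrying shRNA (short hairpin RNA) that targets OSGEP, whose genotype is given as knockdown. The other group of 3 came from cells with control shRNA, whose genotype is given as wild type. How many different hairpins were used is not given. Both groups were HL-60 kept in medium with fetal bovine serum, and no drug treatment, time after transduction or clone is given. It is not stated whether the libraries of a group were separate cultures, so p-values rest on the spread among the libraries alone, and this may be technical.

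Cholesterol is built from acetyl-CoA by way of mevalonate, farnesyl diphosphate, squalene and lanosterol, at membranes of the endoplasmic reticulum for most of its length. When those membranes are poor in sterol, SCAP carries the precursor of the transcription factor SREBP2 to the Golgi, proteases release its active part, and the genes of the pathway are transcribed. INSIG proteins hold SCAP back when sterol is plentiful, and the receptors named LXR, which sense oxysterols, switch on sterol export and MYLIP instead.

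Total counts ran from 8326982 to 10157091 per library. OSGEP itself stood at 21.2, 23.1 and 20.9 CPM (counts scaled to library size with TMM factors) in knockdown libraries 1, 2 and 3 and at 49.0, 54.4 and 76.9 CPM in control libraries 1, 2 and 3. Its log2 fold change, written log2FC and taken as knockdown over control throughout, was -1.47 (SE 0.21, edgeR adjusted p = 0.000228), in the direction the labels give. Of 9 genes that mark promyelocytic cells all 9 were measured, and edgeR called 6 lower in the knockdown (5.56% of all genes tested were) and 0 higher. CEBPE had a log2FC of 0.94 the other way and was not called (unadjusted p = 0.0291). Their sum ran from 1023 to 1142 CPM in the knockdown and from 2885 to 3063 CPM in the control. Among markers of other cells, the 4 lymphoid genes summed to at most 4.12 CPM in any library. The 6 epithelial and mesenchymal genes summed to between 25.1 and 41.0 CPM in the knockdown and between 17.4 and 26.8 CPM in the control, and 0 of the 4 tested were called by edgeR, with 1, KRT8, at an unadjusted p under 0.05, which DESeq2 called higher. The part of these marker differences in the values of the cholesterol genes was not tested, and in bulk RNA fewer cells of a type and less RNA per cell cannot be told apart.

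The cholesterol genes were lower in the OSGEP knockdown at many steps of the pathway, and 0 of them rose. Of the 27, 12 fell (44.4%), where 5.56% of the 14018 genes tested fell (edgeR, adjusted p under 0.05). Among the 10484 genes with a mean of at least 5 CPM, as all 27 have, 7.14% fell. The 12 were ACAT2, HMGCS1, MVK, IDI1, FDPS, FDFT1, SQLE, MSMO1, DHCR7, INSIG1, STARD4 and MYLIP. In 16 of the 27 (59.3%) every knockdown library lay below every control library, against 15.6% of all genes tested, and in 0 of the 27 did every knockdown library lie above. The log2FC was below 0 in 24 of the 27 and ran from -2.71 to 0.27, with a median of -0.52, while the median over all genes tested was 0.01. Over all genes, 727 rose and 780 fell. With library size alone in place of TMM these were 859 and 612, and the same count of 12 cholesterol genes fell and 0 rose. Without any 1 library, between 10 and 13 of the cholesterol genes fell and 0 rose. DESeq2, limma with voom and edgeR each put 0 of the 27 higher at an unadjusted p under 0.05.

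**Figure D1:**
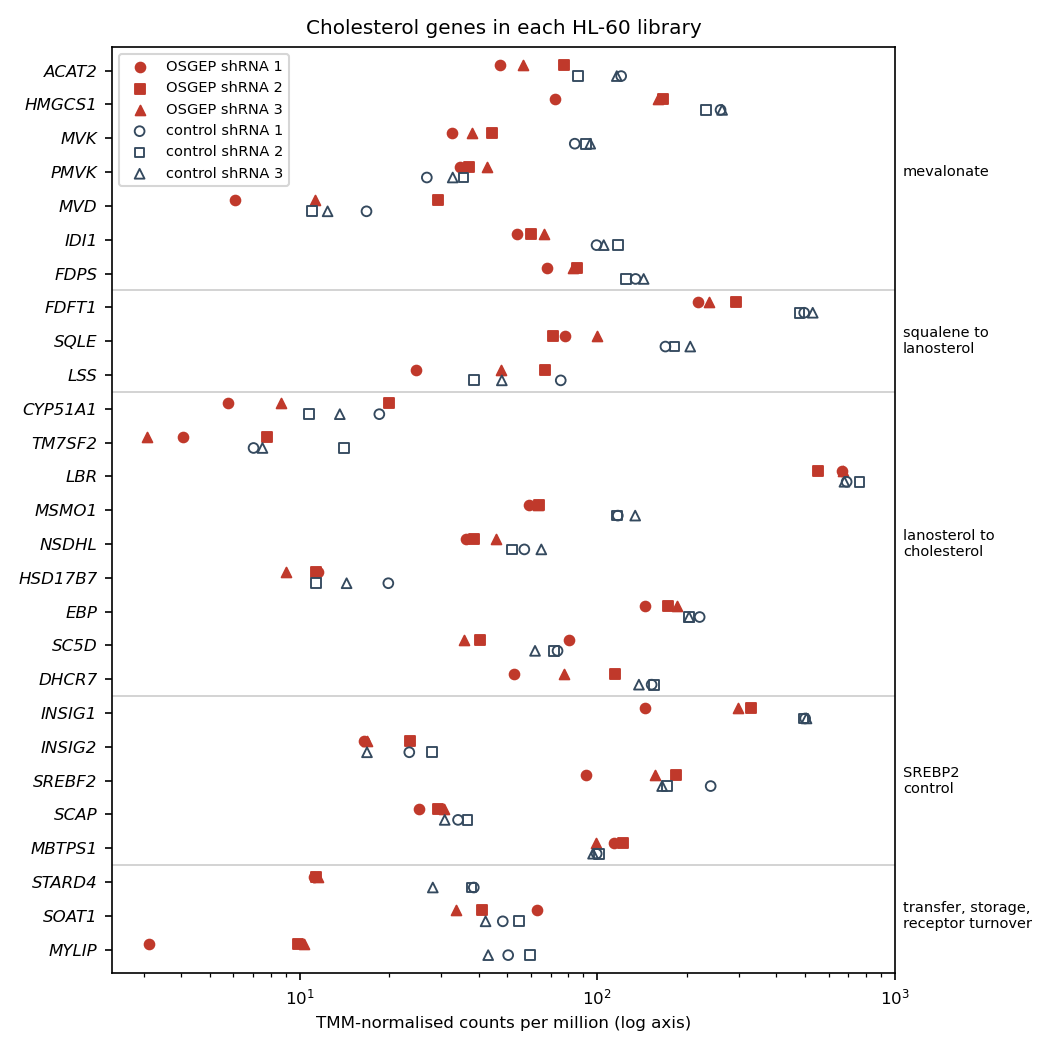
Each row is a cholesterol gene and each point a library, with TMM-normalised CPM on a log axis; filled red marks are OSGEP shRNA libraries, open marks control shRNA libraries, and the shape gives the replicate number. In 16 of the 27 rows all red marks lie to the left of all open marks, and MYLIP has the widest gap.

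**Figure D2:**
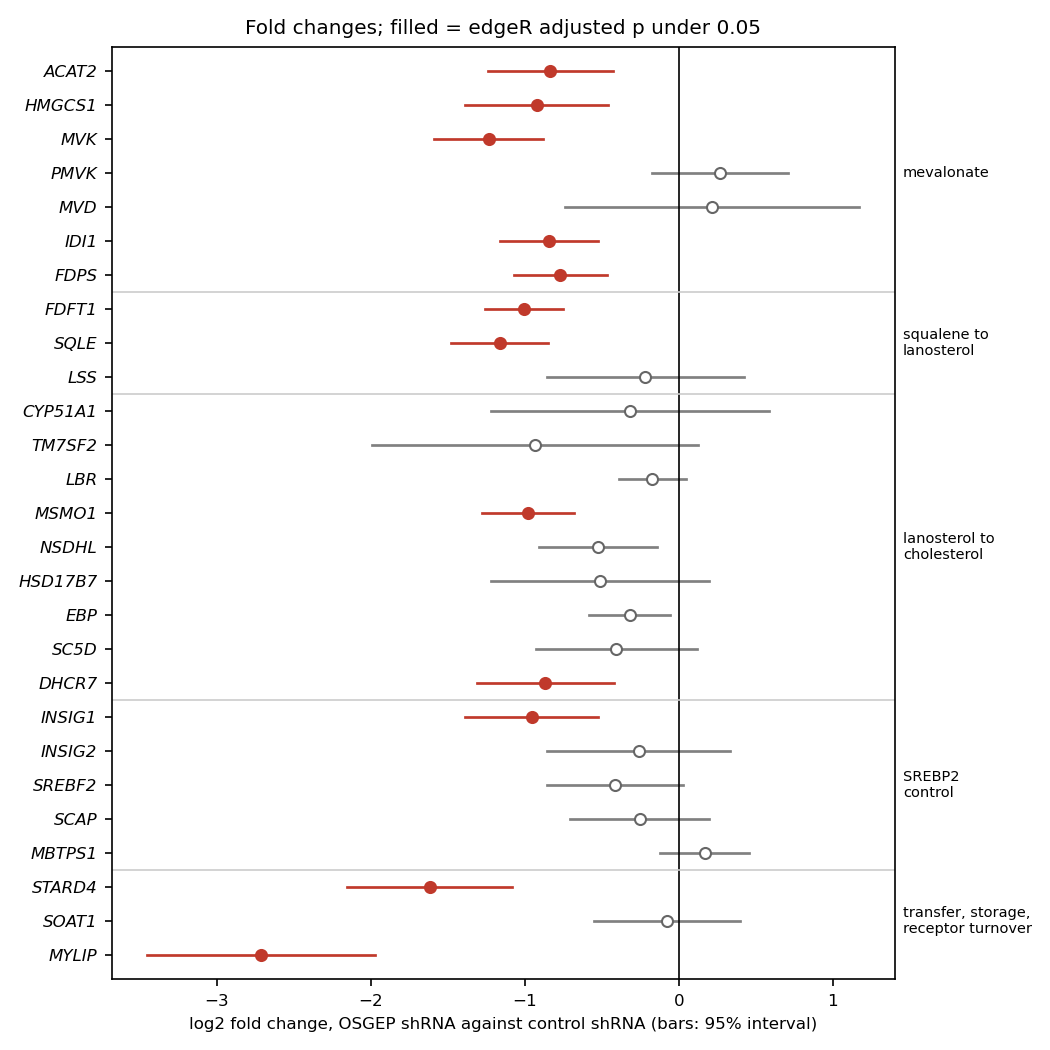
Log2 fold changes of the 27 cholesterol genes in pathway order, OSGEP shRNA against control shRNA, with 95% intervals from the edgeR fit as bars; filled marks are the 12 genes with an adjusted p under 0.05. All filled marks lie between -2.71 and -0.77.

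Sequence upstream of the gene start was available from RefSeq (GRCh38.p14) for 24 of the 27 genes. It was missing for ACAT2, FDFT1 and SQLE, all of which fell. The 250 bases before each start were searched on both strands for CCAAT, the box bound by NF-Y, a factor known to work beside SREBP at sterol-regulated promoters, for GGGCGG, the GC box bound by Sp1, and for the sterol regulatory element in the form TCACNCCAC. CCAAT was present in 17 of the 24 windows (70.8%), against 35.7% of the 9556 windows of genes tested here and 33.04% of all 27305 windows. The GC box was present in 21 of 24 (87.5%), against 66.9% of the windows of tested genes. The sterol regulatory element in this form was present in 1 of 24 windows, that of SREBF2, and in 0.9% of the windows of tested genes. Of the 9 windows of genes that fell, 8 held CCAAT, the exception being IDI1, and of the 15 windows of genes that were not called, 9 held it. The first start in the table was used where RefSeq lists several, as it does for 5 members, and the choice matters. Both of the other starts of IDI1 have CCAAT before them, while the other starts of HMGCS1 and DHCR7 do not. These are matches of letters, not sites shown to be bound.

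Stretches upstream of 6 genes are printed 5′ to 3′ on the strand of the gene, to show how these boxes are set out in 4 genes that fell (MSMO1, INSIG1, STARD4 and MYLIP), in SREBF2, and in MBTPS1, which has none of the letters searched and was not called. Each begins 250 bases before the RefSeq start and ends there or at the outermost start of the gene in GENCODE 29, whichever comes first. Capitals mark CCAAT on either strand (ATTGG when it lies on the other strand) and, in SREBF2, the sterol regulatory element as well.
MSMO1 (chr4:165327419-165327622, plus strand): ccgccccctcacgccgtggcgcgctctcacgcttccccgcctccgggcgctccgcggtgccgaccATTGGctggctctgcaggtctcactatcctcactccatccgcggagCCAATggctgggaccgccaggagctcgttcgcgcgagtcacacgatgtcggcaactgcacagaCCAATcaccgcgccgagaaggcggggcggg
INSIG1 (chr7:155297628-155297775, plus strand): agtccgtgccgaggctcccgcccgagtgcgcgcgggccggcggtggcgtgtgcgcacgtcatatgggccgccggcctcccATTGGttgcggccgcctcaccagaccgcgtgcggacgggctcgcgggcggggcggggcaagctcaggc
STARD4 (chr5:111512591-111512785, minus strand): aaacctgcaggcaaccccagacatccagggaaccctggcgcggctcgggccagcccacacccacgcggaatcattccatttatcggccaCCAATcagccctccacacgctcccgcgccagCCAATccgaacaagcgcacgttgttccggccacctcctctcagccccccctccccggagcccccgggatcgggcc
MYLIP (chr6:16128836-16129085, plus strand): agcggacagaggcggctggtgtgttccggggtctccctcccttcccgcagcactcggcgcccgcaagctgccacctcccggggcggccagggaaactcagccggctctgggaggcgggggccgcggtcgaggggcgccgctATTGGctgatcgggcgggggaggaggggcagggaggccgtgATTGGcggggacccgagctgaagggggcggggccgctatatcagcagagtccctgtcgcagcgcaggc
SREBF2 (chr22:41832855-41833078, plus strand): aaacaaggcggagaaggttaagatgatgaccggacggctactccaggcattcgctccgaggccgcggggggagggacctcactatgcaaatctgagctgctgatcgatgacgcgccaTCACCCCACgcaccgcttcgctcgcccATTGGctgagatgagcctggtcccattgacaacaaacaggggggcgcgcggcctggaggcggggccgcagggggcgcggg
MBTPS1 (chr16:84116943-84117192, minus strand): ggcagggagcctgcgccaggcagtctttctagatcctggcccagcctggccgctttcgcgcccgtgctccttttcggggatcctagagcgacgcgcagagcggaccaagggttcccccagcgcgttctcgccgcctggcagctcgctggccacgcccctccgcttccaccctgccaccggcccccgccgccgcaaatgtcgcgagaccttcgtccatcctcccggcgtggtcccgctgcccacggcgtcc
The printed stretch of MSMO1 holds 3 CCAAT boxes, those of STARD4 and MYLIP 2 each, and those of INSIG1 and SREBF2 1 each. In SREBF2 the sterol regulatory element begins 133 bases before the start, and the CCAAT box lies between it and the gene.

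**Figure D3:**
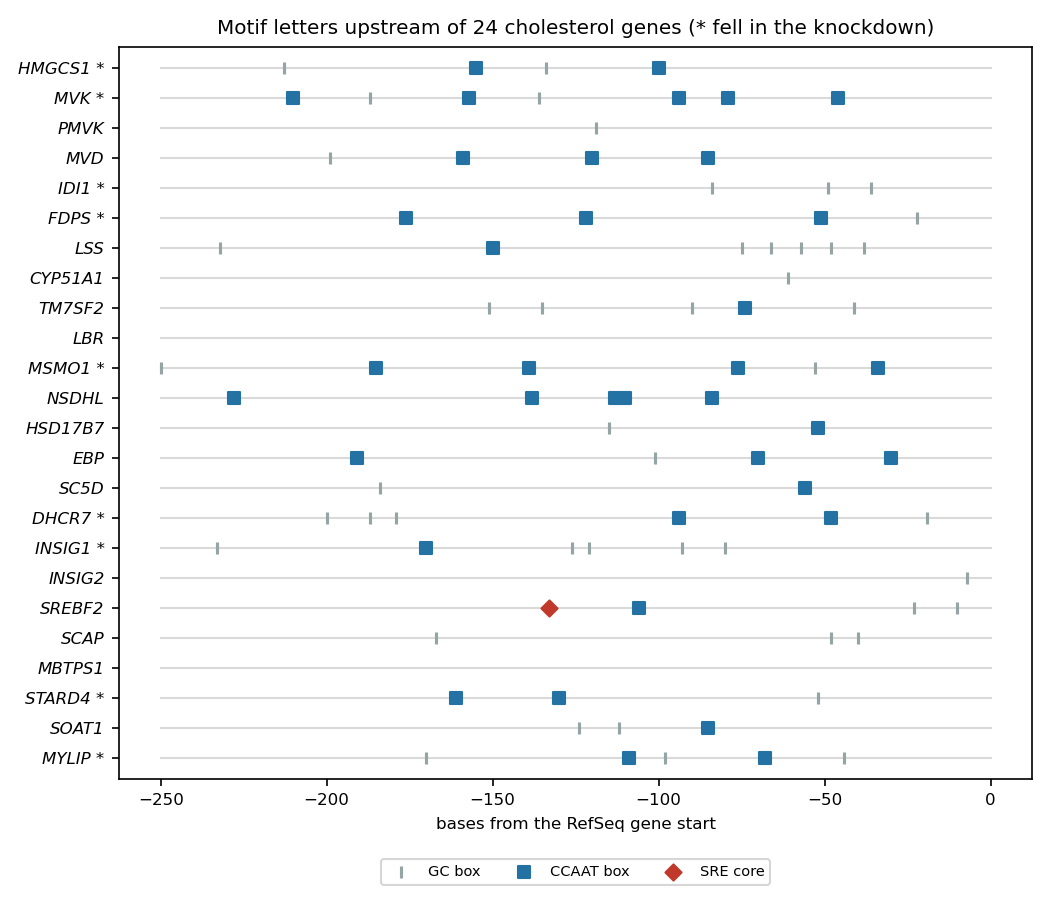
Positions of the searched letters in the 250 bases before the RefSeq start of 24 cholesterol genes, in bases from the start; squares are CCAAT, bars GGGCGG, the diamond the sterol regulatory element, and asterisks mark genes that fell. CCAAT appears in 17 rows and the sterol regulatory element in 1.

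In the mevalonate segment 5 of 7 enzymes fell and 0 rose, with a median log2FC of -0.83. ACAT2, which joins acetyl-CoA units in the cytosol, was at 47.1, 77.8 and 56.3 CPM in knockdown libraries 1, 2 and 3 and at 121, 86.3 and 117 CPM in control libraries 1, 2 and 3 (log2FC -0.83, SE 0.19, edgeR adjusted p = 0.00913). Knockdown library 2 came closest to the control range, just under control library 2, and the call was lost without knockdown 3 (edgeR adjusted p = 0.0636), control 1 (0.0546) or control 3 (0.0607). ACAT2 shares exon sequence with genes on the other strand, and its level is uncertain for that reason. The chaperonin gene TCP1, over 9.2% of the ACAT2 exons, had mean counts of 2299 in the knockdown and 2377 in the control. Larger overlaps, over 26.5% and 33.9% of the ACAT2 exons, are with genes not analysed here, whose change is not known. The library kit kept strand, but the strand setting of the counting is not given in the sources used here, so reads from overlapping genes on opposite strands may not be told apart.

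HMGCS1 makes HMG-CoA, the substrate from which mevalonate is formed. It was at 72.3, 167 and 160 CPM in the knockdown and at 260, 233 and 263 CPM in the control, a log2FC of -0.92 (SE 0.22, edgeR adjusted p = 0.0113). Knockdown library 1 was far below its partners, while the control values lay close together. DESeq2 did not call HMGCS1 (adjusted p = 0.0785), nor did edgeR without control 3 (adjusted p = 0.0601), and without knockdown 1 its log2FC was -0.63 and still called.

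MVK, which adds the first phosphate to mevalonate, had the steepest fall of the segment. Its values were 32.4, 44.3 and 38.1 CPM in the knockdown and 84.2, 91.6 and 94.9 CPM in the control, 2.36-fold lower in the knockdown (log2FC -1.24, SE 0.17, edgeR adjusted p = 0.000116). The groups were well apart in all libraries. MMAB, a cobalamin enzyme gene that overlaps MVK on the other strand over 4.7% of its exons, had mean counts of 500.3 in the knockdown and 927 in the control.

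IDI1 isomerises isopentenyl diphosphate and FDPS joins the isoprene units into farnesyl diphosphate. IDI1 was at 53.7, 59.8 and 66.3 CPM in the knockdown and at 99.6, 117 and 105 CPM in the control (log2FC -0.84, SE 0.15, edgeR adjusted p = 0.00132). FDPS was at 67.9, 85.3 and 83.1 CPM in the knockdown and at 135, 125 and 144 CPM in the control (log2FC -0.77, SE 0.14, edgeR adjusted p = 0.0018). Both kept the groups apart and both calls held in all 15 alternatives planned. FDPS is uncertain as a level because 8 named pseudogenes, which resemble its mRNA, held 35.9% of the counts of the family, and with those counts added to it, an alternative chosen after seeing the data, its log2FC was -0.73 (edgeR adjusted p = 0.000712). The antisense RNA RUSC1-AS1 overlaps 18.6% of its exons and had mean counts of 71.3 in the knockdown and 164 in the control.

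The other pair of the segment, PMVK and MVD, act between MVK and IDI1. PMVK, which adds the next phosphate, was at 34.7, 37.2 and 42.6 CPM in the knockdown and at 26.8, 35.6 and 32.7 CPM in the control (log2FC 0.27, 95% interval -0.18 to 0.71, edgeR adjusted p = 0.512). That interval does not reach the estimates of MVK or IDI1, although the difference between genes was not tested. MVD, the decarboxylase, was at 6.05, 29.3 and 11.3 CPM in the knockdown and at 16.8, 11.0 and 12.4 CPM in the control, so that 1 knockdown library was above and 1 below all controls. Its interval was wide (log2FC 0.22, 95% interval -0.74 to 1.17), and its estimate was -0.63 without knockdown 2 and 0.60 without knockdown 1.

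From squalene to lanosterol, 2 of 3 enzymes fell. FDFT1, squalene synthase, the first enzyme committed to sterols, was at 219, 294 and 237 CPM in the knockdown and at 497, 479 and 531 CPM in the control. Every knockdown library was far below every control, 2.01-fold on average (log2FC -1.01, SE 0.12, edgeR adjusted p = 3.08e-05). SQLE, squalene epoxidase, a rate-limiting oxygen-dependent step, was at 78.0, 71.4 and 99.7 CPM in the knockdown and at 170, 182 and 206 CPM in the control, 2.24-fold lower (log2FC -1.16, SE 0.15, edgeR adjusted p = 6.55e-05). Both calls held in all 15 alternatives planned. LSS, which closes the rings to give lanosterol, was at 24.7, 67.0 and 47.4 CPM in the knockdown and at 75.5, 38.6 and 47.9 CPM in the control, with ranges that overlap (log2FC -0.22, 95% interval -0.86 to 0.42), and its estimate was above 0 without knockdown 1 (0.08) or control 1 (0.10).

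From lanosterol to cholesterol, 2 of 9 enzymes fell and the other 7 were not called, although all 9 had log2 fold changes below 0, with a median of -0.51. MSMO1, the oxidase that begins the removal of a pair of methyl groups from the sterol ring, was at 59.3, 64.0 and 63.3 CPM in the knockdown and at 117, 116 and 134 CPM in the control (log2FC -0.98, SE 0.14, edgeR adjusted p = 0.000192). The knockdown libraries lay close together and well under the controls. DHCR7, which catalyses the final reduction to cholesterol, was at 52.5, 115 and 77.2 CPM in the knockdown and at 153, 155 and 138 CPM in the control (log2FC -0.87, SE 0.21, edgeR adjusted p = 0.0122). Its knockdown values were spread over a wide range below the controls, and the call was lost without knockdown 3 (edgeR adjusted p = 0.0768) or control 2 (0.0667).

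Among the 7 that were not called, NSDHL, EBP and LBR had every knockdown library below every control. NSDHL, which acts with MSMO1 and HSD17B7 in demethylation, was at 36.3, 38.6 and 45.9 CPM in the knockdown and at 57.0, 51.8 and 65.0 CPM in the control (log2FC -0.52, 95% interval -0.91 to -0.14, edgeR adjusted p = 0.0807). EBP, the sterol isomerase, had a log2FC of -0.32 (95% interval -0.58 to -0.06, edgeR adjusted p = 0.122), from 210 ± 10.1 to 168 ± 20.5 CPM (SD, n = 3 each). Both intervals leave out 0 before adjustment over all genes. LBR, a sterol reductase that also ties chromatin to the nuclear envelope, was the most abundant member in CPM, at 630 ± 66.2 in the knockdown and 711 ± 45.3 in the control, and its interval of -0.39 to 0.04 leaves out a fall of the size seen for MSMO1.

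CYP51A1, TM7SF2 and HSD17B7 were the scarcest enzymes of the segment, with control means of 14.3, 9.54 and 15.2 CPM. Their log2 fold changes were -0.32 (95% interval -1.22 to 0.59), -0.93 (-1.99 to 0.12) and -0.51 (-1.22 to 0.20), so falls as large as that of MSMO1 lie within each interval. The estimate for CYP51A1 was -0.99 without knockdown 2 and 0.00 without knockdown 1. CYP51A1, the lanosterol demethylase, has 3 named pseudogenes with 44.8% of the family's counts, so its level is uncertain. Another gene model on the same strand covers 79.4% of its exons in GENCODE 29, but that model was not among the genes counted. SC5D, a desaturase, was at 80.5, 40.3 and 35.7 CPM in the knockdown and at 73.7, 71.8 and 61.9 CPM in the control, with knockdown library 1 above all controls and the other two below. Without that library SC5D was called lower (log2FC -0.86, edgeR adjusted p = 0.00518).

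Of the 5 genes of SREBP2 control, 1 fell and 0 rose. INSIG1, which holds SCAP in the endoplasmic reticulum and is itself a classic SREBP target, was at 145, 330 and 298 CPM in the knockdown and at 501, 494 and 506 CPM in the control (log2FC -0.96, SE 0.20, edgeR adjusted p = 0.00557). The control libraries differed by little, with an SD of 1.17% of the mean, and knockdown library 1 was the lowest by a wide margin. Without that library INSIG1 was still called, at -0.67. INSIG2, its close relative, was scarcer, at 18.9 ± 3.94 CPM in the knockdown and 22.7 ± 5.51 in the control (SD, n = 3 each), and was not called (log2FC -0.26, 95% interval -0.85 to 0.33).

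SREBF2, which encodes SREBP2, was at 91.9, 185 and 157 CPM in the knockdown and at 241, 172 and 166 CPM in the control. The groups overlap through knockdown library 2, and the log2FC was -0.42 (95% interval -0.86 to 0.02, edgeR adjusted p = 0.25). SCAP, the escort of SREBP2, was at 28.4 ± 2.82 CPM in the knockdown and 33.9 ± 2.98 in the control (log2FC -0.25, 95% interval -0.71 to 0.20). Its groups were apart by very little, with the highest knockdown library at 30.72 CPM and the lowest control at 30.77 CPM. MBTPS1, the Golgi protease that makes the first cut, was at 112 ± 11.6 CPM in the knockdown and 99.5 ± 2.40 in the control (log2FC 0.17, 95% interval -0.12 to 0.46). The estimate for INSIG1 lies below the intervals of SREBF2, SCAP and MBTPS1, but differences between genes were not tested.

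The largest changes of the list were in sterol handling after synthesis. MYLIP (ENSG00000007944, chr6:16129125-16148248, plus strand of GRCh38), a ubiquitin ligase that marks lipoprotein receptors for degradation and is an LXR target, was at 3.13, 9.89 and 10.3 CPM in the knockdown and at 50.3, 59.5 and 43.1 CPM in the control. These were 30, 107 and 87 reads against 488, 582 and 350. The knockdown level was 6.55-fold lower (log2FC -2.71, SE 0.35, edgeR adjusted p = 6.7e-05), and 84 of the 14018 genes tested had a lower fold change. STARD4 (ENSG00000164211, chr5:111496033-111512590, minus strand), which carries cholesterol between membranes through the cytosol, was at 11.2, 11.4 and 11.5 CPM in the knockdown and at 38.5, 37.8 and 28.1 CPM in the control, 3.07-fold lower (log2FC -1.62, SE 0.25, edgeR adjusted p = 0.000422). The knockdown libraries were nearly equal for STARD4, and both calls held in all 15 alternatives planned. SOAT1, which esterifies cholesterol for storage, did not separate the groups, at 62.7, 41.1 and 33.7 CPM in the knockdown and 48.2, 54.6 and 42.2 CPM in the control (log2FC -0.08, 95% interval -0.55 to 0.40), and its estimate was above 0 without knockdown 2 (0.01), knockdown 3 (0.12) or control 2 (0.02).

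Summed over its 19 enzymes, the pathway stood at 1696, 1956 and 1943 CPM in knockdown libraries 1, 2 and 3 and at 2843, 2798 and 2871 CPM in the control libraries, a ratio of means of 0.657. The sum of the mevalonate segment had a ratio of 0.575, that of squalene to lanosterol 0.511 and that of lanosterol to cholesterol 0.782, the last being carried largely by LBR. These sums follow the abundant genes and are given without a test.

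**Figure D4:**
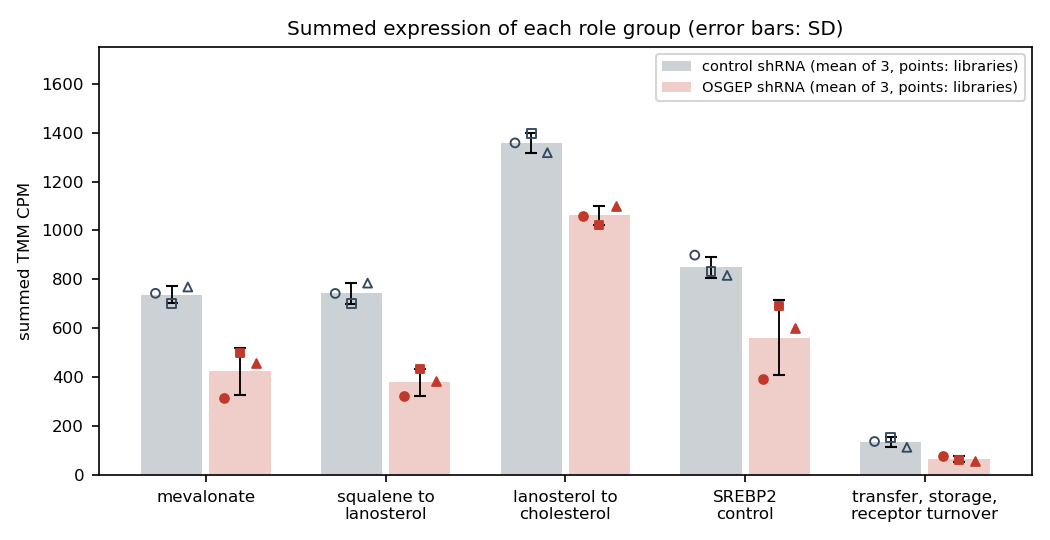
Summed TMM-normalised CPM of the members of each role group, as bars for the mean of 3 libraries, error bars for the SD and points for the libraries (shape gives the replicate number). In each of the 5 groups every OSGEP shRNA library lies below every control shRNA library.

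Levels between genes were compared per kilobase of merged exons (RPKM). In the control INSIG1 (137) and LBR (135) led, with overlapping ranges, followed by FDFT1 (96.6), EBP (87.1) and HMGCS1 (53.6), each apart from the next. MVD (2.85) and TM7SF2 (2.80) were lowest, and 18 of the 26 neighbouring pairs in the order overlapped between control libraries. In the knockdown LBR (119.9) led, INSIG1 (70.6) and EBP (69.8) followed, and FDFT1 stood at 48.1. MYLIP went from place 15 to place 24 and SQLE from 6 to 11, while PMVK, which was not called, went from 13 to 5. In the control PMVK (24.8) was close to SREBF2 (25.5), ACAT2 (25.1) and IDI1 (24.7). In the knockdown its mean of 29.8 lay within the range of HMGCS1 (15.4 to 35.4), so its change of place does not show a rise.

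The knockdown libraries differed among themselves in these genes. Knockdown library 1 had the lowest value of its group for 20 of the 27 members, library 3 for 5 and library 2 for 2, whereas the lowest control was library 1, 2 or 3 for 5, 12 and 10 members. The median log2 difference from the control mean was -1.04, -0.37 and -0.69 in knockdown libraries 1, 2 and 3. The SD within the knockdown was 38.4% of the mean for INSIG1, 39.6% for HMGCS1 and 38.4% for DHCR7, against 1.17%, 6.65% and 6.10% in the control. SQLE (17.9%), FDFT1 (15.6%) and MSMO1 (4.11%) varied less in the knockdown than these. OSGEP itself was at 21.2, 23.1 and 20.9 CPM in knockdown libraries 1, 2 and 3, values too close together to give an order. Where the spread comes from was not tested.

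Other lists of sterol genes are given for comparison with the pathway. Of 15 genes of the branches that use farnesyl diphosphate for protein prenylation, ubiquinone and dolichol, 0 were called by edgeR, with 3 at an unadjusted p under 0.05 (ZMPSTE24, PDSS2 and NUS1, all higher) and 0 called by DESeq2 or limma with voom, and their median log2FC was 0.13. NUS1, a subunit of the dolichol-making enzyme and the most abundant of these, was at 163 ± 14.3 CPM in the knockdown and 132 ± 18.8 in the control. A further list of 17 genes held SREBF1 itself and factors that move, process or degrade SREBP and sterol-sensing proteins. Of these, SREBF1 fell and SPRING1 rose. That share of 5.9% each way is close to the 5.56% and 5.19% over all genes tested. SREBF1, which encodes SREBP1, was at 9.18, 27.6 and 17.1 CPM in the knockdown and at 51.5, 40.7 and 33.1 CPM in the control (log2FC -1.21, SE 0.32, edgeR adjusted p = 0.0232), and its call was lost with library size alone (edgeR adjusted p = 0.0529) and without knockdown 3, control 1 or control 2 (0.0778 to 0.118). SPRING1, which helps the Golgi protease to act on SREBP, was at 70.4, 56.8 and 53.0 CPM in the knockdown and at 35.8, 34.7 and 33.6 CPM in the control (log2FC 0.79, SE 0.18, edgeR adjusted p = 0.00904), and its call was lost without control 3.

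Genes that bring in or release sterol were among those that rose. Of 18 tested genes of sterol transport, lysosomal release and lipoprotein receptors, 5 rose and 0 fell in edgeR, DESeq2 and limma with voom, where 5.19% of all genes tested rose in edgeR. At an unadjusted p under 0.05, 2 of the 18 were lower. LRP1, a large endocytic receptor, was at 22.3, 21.1 and 26.9 CPM in the knockdown and at 6.59, 6.03 and 8.86 CPM in the control (log2FC 1.71, SE 0.31, edgeR adjusted p = 0.00151). LIPA, the lysosomal enzyme that frees cholesterol from its esters, was at 143, 113 and 134 CPM in the knockdown and at 47.0, 63.7 and 65.2 CPM in the control (log2FC 1.15, SE 0.16, edgeR adjusted p = 0.000179). The other rises, named after their values were seen, were SCARB2 at 1.12, OSBPL11 at 0.79 and SCARB1, a receptor for high-density lipoprotein, at 0.50. The call of SCARB1 was lost in 4 of the fits without 1 library and that of OSBPL11 in all 6. With a replicate block the calls of SCARB1 (edgeR adjusted p = 0.0589) and OSBPL11 (0.083) were lost as well.

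Among 10 LXR factors and targets 1 fell and 0 rose in edgeR, DESeq2 and limma with voom, with 0 higher at an unadjusted p under 0.05. ABCA1, the cholesterol exporter and like MYLIP an LXR target, was at 5.84, 0.740 and 1.07 CPM in the knockdown and at 32.0, 26.6 and 25.4 CPM in the control (log2FC -3.45, SE 0.55, edgeR adjusted p = 0.000544). Knockdown library 1 was the highest of its group, and without it the log2FC was -4.96. The receptors NR1H2 and NR1H3 had log2 fold changes of 0.37 and 0.13 and were not called. ABCG1, another exporter, LPCAT3, a phospholipid acyltransferase, and PLTP, a lipid transfer protein, had every knockdown library below every control but stood at or below 5.56 CPM in all libraries, and were not called. SMPDL3A, a phosphodiesterase, was as scarce and had every knockdown library above every control (log2FC 0.74, 95% interval -0.63 to 2.1). In all, 5 of the 10 separated downward and 1 upward, where 15.6% and 13.3% of all genes tested did. Of 12 fatty acid genes known as SREBP1 targets, 5 fell and 2 rose in edgeR and DESeq2, where 5.56% and 5.19% of all genes tested fell and rose in edgeR, and limma with voom put 5 lower and 1 higher, without PNPLA3. FADS1, a desaturase, fell from 275 ± 24.4 to 56.4 ± 9.76 CPM (log2FC -2.29, SE 0.15, edgeR adjusted p = 3.77e-08), and ME1, which makes NADPH, rose from 13.1 ± 1.67 to 71.4 ± 6.98 CPM (log2FC 2.45, SE 0.20, edgeR adjusted p = 6.48e-07). The others, named after their values were seen, were SCD at -1.32, ACSS2 at -0.97, ACACA at -0.91, ACLY at -0.48 and, with values of 5.43 CPM or less, PNPLA3 upward. The calls of ACSS2 and ACLY were lost with library size alone. Each of the calls of ACSS2, ACLY and PNPLA3 was lost in 5 of the 6 fits without 1 library. A replicate block also lost ACSS2 (edgeR adjusted p = 0.056), ACLY (0.0754) and PNPLA3 (0.065).

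**Figure D5:**
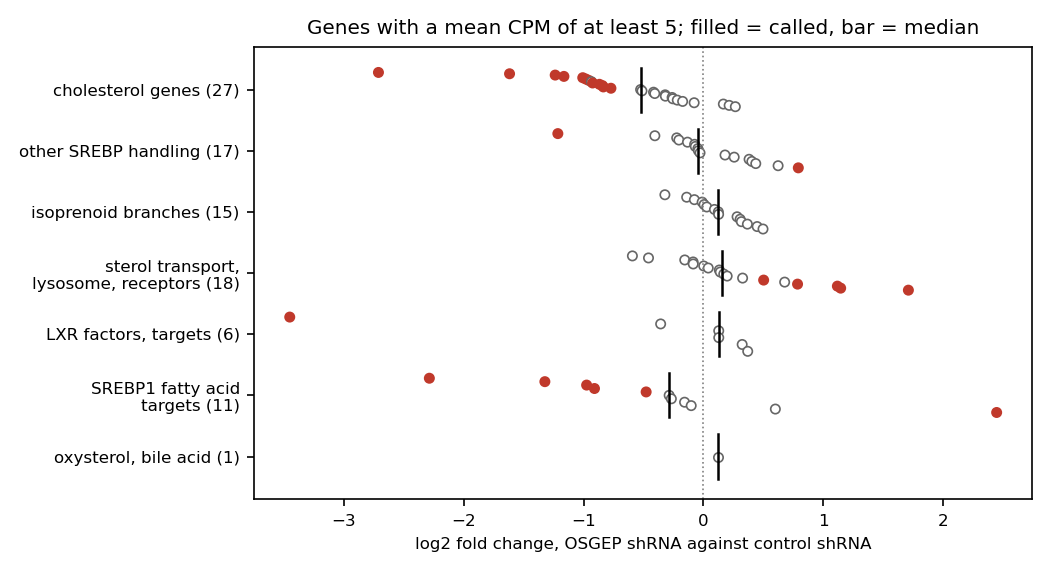
Log2 fold changes, OSGEP shRNA against control shRNA, of genes with a mean of at least 5 CPM in the cholesterol list and 6 lists around it (number of genes in brackets); filled marks have an edgeR adjusted p under 0.05 and black bars are medians. The cholesterol list has its median at -0.52 and no filled mark on the right, whereas the filled marks of the transport list lie on the right.

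A list of 8 genes held enzymes of oxysterol and bile acid synthesis and also EBPL, and 2 of the 8 passed the filter on low counts. CYP27A1, a sterol hydroxylase named after its values were seen, had 0 counts in all control libraries and 1.46, 3.05 and 3.08 CPM in the knockdown, at least 23.3-fold higher if the control is set at 3 counts over the group. It was called by edgeR (adjusted p = 0.0155). The call was lost in 5 of the 6 fits without 1 library and with a replicate block (edgeR adjusted p = 0.0748). EBPL, a relative of EBP, was at 13.3 ± 5.23 CPM in the knockdown and 12.2 ± 0.583 in the control.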

How the data were processed

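RNA from 6 HL-60 libraries, 3 with shRNA against OSGEP and 3 with control shRNA, was sequenced as paired-end stranded mRNA, per the labels' protocols. The authors deposited raw read counts per Ensembl gene for each library. HISAT2 2.1.0, featureCounts 1.6.3 and the builds GRCh38 and GRCm38 are named, without roles, in the submitters' processing notes. The annotation release, the strand setting and the handling of reads that map to several places were not given in the sources used here.

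Counts were fitted with edgeR 4.0.16 in R 4.3.3 (quasi-likelihood F test, TMM, filterByExpr at 10 counts per gene and 15 in total), which left 14018 genes, with 44284 left out. Genes were called at a Benjamini-Hochberg adjusted p under 0.05 over all genes tested, and 95% intervals come from the same fit. The common biological coefficient of variation was 35.2%. Within a group, pairs of libraries differed by a chi-square of 10.5 to 25.6 per degree of freedom, more than counting noise gives, which does not show that they were separate cultures. Levels per kilobase used merged exons of GENCODE 29, on GRCh38. Promoter windows came from RefSeq (GRCh38.p14).

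All 27 members were named. Of each list around them, the rule named up to 2 called genes with a mean of at least 5 CPM and the largest change, or else the most abundant gene. The members and lists were chosen with earlier results of these data known. Alternatives were RLE factors, library size alone, other filters, DESeq2 1.42.0, limma 3.58.1 with voom, protein-coding genes alone, a replicate block, an adjusted p under 0.01 and leaving out each library. The fitting script was tested on simulated data. It recovered 3.1% of simulated 1.5-fold changes, 40.6% of 2-fold changes and 77.3% of 4-fold changes, with 4 false calls among 83. A gene that was not called may therefore still have changed. One list of marker genes of other cells is not reported here.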

Additional observations from a re-analysis of the deposited data

How the results depend on the processing

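In all 15 alternatives planned and the 1 added after seeing the data, between 10 and 13 cholesterol genes were called lower and 0 higher. MVK, IDI1, FDPS, FDFT1, SQLE, MSMO1, INSIG1, STARD4 and MYLIP were called in each of these fits. ACAT2, HMGCS1 and DHCR7 were not: DESeq2 left out HMGCS1, the threshold of 0.01 left out HMGCS1 and DHCR7, and leaving out 1 library cost ACAT2 3 times, DHCR7 2 times and HMGCS1 once. No direction of a called gene reversed.

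Over all genes, leaving out 1 library gave 870 to 1624 calls, of which 445 to 726 were higher and 423 to 898 lower, against 1507, 727 and 780 with all libraries. The counts were 941 without knockdown 3, 890 without control 2 and 870 without control 3. At an adjusted p under 0.01, 823 genes were called, 400 higher and 423 lower. The groups share replicate numbers, but same-numbered libraries had correlated deviations of -0.12, -0.06 and -0.04, so the numbers were not taken as pairs, and no library correlated best with its own number. With a replicate block, 12 cholesterol genes and 1072 genes in all were called, 519 higher and 553 lower. With 3 libraries a group and control means of 9.54 to 15.2 CPM, the intervals of CYP51A1, TM7SF2 and HSD17B7 hold both 0 and the fall seen for MSMO1.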
